A study of Mus musculus with 12 samples.

Results

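The ten-eleven translocation genes Tet1, Tet2 and Tet3 encode the mouse TET dioxygenases. Their transcripts were followed in embryonic stem (ES) cells of the mouse, with 12 arrays in one colour. The members were all probes that carry a Tet name, an older name of a Tet gene or its RefSeq accession, with 1 further probe that is named Tet2 only in the authors' deposited table, in all 7 of 41174 probes and 3 of 26891 genes. The reporter lines were Stella-GFP and Dazl-GFP (Stella is another name of Dppa3, and both it and Dazl are germ cell genes). They were sampled at days 0, 3 and 10 in 2 arms, with 1 array per line, arm and day, so that each of the 6 groups held 2 arrays. In every group the ES cells grew with leukemia inhibitory factor on irradiated embryonic fibroblasts as feeder cells. The medium was DMEM with 15% fetal bovine serum (FBS arm) or serum-free B27N2 (serum-free arm, labelled as 2i condition). The 2i cultures received PD0325901 (1 µM), which inhibits MEK, and Kenpaullone (5 µM), which inhibits GSK3β. Whether FBS cultures also got these inhibitors after day 0, and what serum-free cultures had got before day 0, is not in the labels. Each line is a single line, and the labels name no step that removed feeders before extraction, so fewer cells of a type and less RNA per cell cannot be told apart. The series title places TET activity and Dazl in the move to naive pluripotency, and the comparisons ask how Tet transcripts differed between the arms, over the days and between the lines.

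TET enzymes oxidise the methyl group of 5-methylcytosine in DNA to 5-hydroxymethylcytosine and on to formyl and carboxyl forms, which thymine DNA glycosylase and base excision repair can remove. They need iron and 2-oxoglutarate, and ascorbate raises their activity. Tet1 and Tet2 are the forms known best in ES cells, and Tet3 is known from the oocyte and zygote. Tet1 and Tet3 carry a CXXC domain that binds DNA with CpG, while the matching domain of Tet2 lies in a separate neighbouring gene, Cxxc4.

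The RefSeq promoter windows of all 3 genes were at hand, each of 250 bases that end just before the annotated start, in build GRCm38.p6 and on the minus strand. They are shown because TET enzymes act on CpG sites and the genes differ in how many lie at their own starts. The capitals mark CpG.
Tet1: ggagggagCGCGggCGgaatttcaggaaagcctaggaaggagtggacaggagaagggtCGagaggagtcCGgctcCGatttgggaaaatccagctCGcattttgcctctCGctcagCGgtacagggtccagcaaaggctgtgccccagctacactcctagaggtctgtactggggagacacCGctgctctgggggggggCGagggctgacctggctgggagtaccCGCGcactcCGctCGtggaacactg
Tet2: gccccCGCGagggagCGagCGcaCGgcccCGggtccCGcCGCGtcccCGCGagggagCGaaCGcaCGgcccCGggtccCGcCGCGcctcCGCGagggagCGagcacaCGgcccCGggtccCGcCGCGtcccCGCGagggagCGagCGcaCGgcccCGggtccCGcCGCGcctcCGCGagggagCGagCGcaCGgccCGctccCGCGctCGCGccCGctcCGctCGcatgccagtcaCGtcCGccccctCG
Tet3: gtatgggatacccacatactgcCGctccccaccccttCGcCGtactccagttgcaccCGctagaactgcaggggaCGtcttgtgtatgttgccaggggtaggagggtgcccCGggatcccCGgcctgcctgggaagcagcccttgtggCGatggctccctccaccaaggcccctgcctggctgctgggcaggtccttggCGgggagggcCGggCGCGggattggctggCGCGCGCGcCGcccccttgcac

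The Tet1 window (chr10:62887325-62887574) held 15 CpG with 62.8% G and C, and 27.31% of 32851 mouse promoter windows of this length held as many. The Tet3 window (chr6:83441679-83441928) held 17 CpG with 69.6% G and C, a count reached by 23.52% of windows. The start used for Tet3 lay 15530 bases inside the gene's annotated span, against 145 bases for Tet1 and 746 for Tet2, so the Tet3 window belongs to an internal start. The Tet2 window (chr3:133544391-133544640) held 51 CpG with 83.6% G and C, and 0.07% of windows held as many, where the median window had 6. A unit of 22 bases, shown because it makes up much of that window, stood in it 4 times at a spacing of 42 bases and in 1 of the 32851 windows.
Tet2 repeat unit: cacggccccgggtcccgccgcg
These are descriptions of reference sequence, and DNA methylation was not measured on these arrays.

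Of the 7 probes, 1 was for Tet1, 3 were for Tet2 and 3 for Tet3. The Tet1 probe A_51_P512172 is listed under the older name Cxxc6 and was well above background on 12 of 12 arrays, at 602 to 1800 intensity units. Tet2 had 2 probes named by the RefSeq accession of its transcript, A_51_P340083 (187 to 899 units) and A_52_P502083 (45.8 to 566 units), both well above background on every array. Another probe, A_51_P478930 (631 to 3280 units), is listed under a cDNA clone and takes the name Tet2 only in the authors' deposited table, so the brighter of the RefSeq probes, A_51_P340083, stood for Tet2. Tet3 was read by A_52_P173108 (32.9 to 236 units, stands for the gene), A_52_P491273 (34.9 to 73.8 units) and A_51_P199339 (8.18 to 22.4 units), all under older clone names. The last was well above background on 4 of 12 arrays and the others on 12. No probe's level is set against another's, since probes differ in brightness.

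The arrays lay on 3 slides. On slide 1 were all FBS arrays of Dazl-GFP and the day 0 FBS array of Stella-GFP. On slide 2 were the later FBS arrays of Stella-GFP (days 3 and 10) together with Dazl-GFP in serum-free at day 0 and at day 3, and on slide 3 the other 4 serum-free arrays. The 75th percentile of an array's signal was 454 to 947 units, and values below are log2 signal minus this percentile (scaled log2 signal). On each array 64.02% to 74.44% of spots lay well above background. Precision is limited by how few arrays there are. All 9 ES cell markers on the array, among them Pou5f1, Nanog and Sox2, were well above background on every array. So were all 18 feeder fibroblast markers, whose summed signal (in multiples of the array's 75th percentile) was 89.6 to 155 in FBS at day 3 and 20.7 to 30.7 in serum-free at day 3, against 45.8 to 95.1 in the other groups. Macrophage markers summed to 1.95 to 9.57 over all arrays, with 9 to 12 of 12 well above background, and neuroectoderm markers to 18.7 to 26.2 in FBS at days 3 and 10 against 4.75 to 10.8 in the other groups. Changes are limma differences with Benjamini-Hochberg adjustment over 20768 genes, passing at 0.05. Of the 10 neuroectoderm markers, 8 were well above background in FBS at day 3 and 10 in FBS at days 0 and 10. From day 0 in FBS 1 of them rose to day 3 (12.1% of all genes passed) and 2 to day 10 (12.9%). Their median differences were 0.34 and -0.24, so the higher sums do not describe the list as a whole. As nothing says that the lines were cultured more than once, p-values here measure the spread between these samples only, which may be technical.

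**Figure D1:**
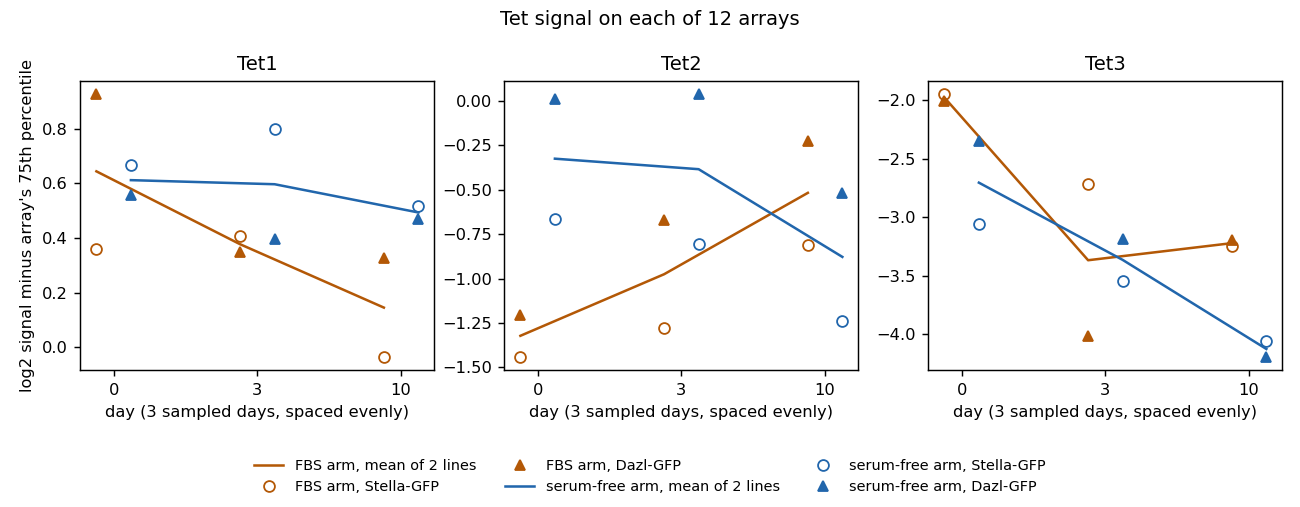
Scaled log2 signal (log2 signal minus the array's 75th percentile) of Tet1, Tet2 and Tet3 by day, with FBS in brown and serum-free in blue, circles for Stella-GFP, triangles for Dazl-GFP and lines through the means of the 2 arrays. The Tet2 lines of the arms cross between days 3 and 10, and the Tet3 means are lower at day 10 than at day 0 in both arms.

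Tet2 was the Tet gene with calls. At day 0 it was higher in serum-free than in FBS, it rose in FBS by day 10, and was higher in Dazl-GFP than in Stella-GFP, and 3 of its 12 comparisons passed (8 at an unadjusted p under 0.05). In FBS its scaled log2 signal was -1.44 in Stella-GFP and -1.20 in Dazl-GFP at day 0, then -1.28 and -0.67 at day 3, then -0.81 and -0.23 at day 10. In serum-free it was -0.66 and 0.01 at day 0, -0.81 and 0.04 at day 3, and -1.24 and -0.52 at day 10. At day 0 both serum-free arrays lay above both FBS arrays, while at days 3 and 10 the arms overlapped. The order of the group means ran from serum-free day 0 (-0.32 ± 0.48, SD, n = 2) through serum-free day 3 (-0.38 ± 0.60), FBS day 10 (-0.52 ± 0.41), serum-free day 10 (-0.88 ± 0.51) and FBS day 3 (-0.98 ± 0.43) to FBS day 0 (-1.32 ± 0.17), and each neighbouring pair overlapped.

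At day 0 Tet2 was higher in serum-free by 1.00 on the log2 scale (SE 0.18, 95% interval 0.58 to 1.42, limma adjusted p = 0.0464), a 2.00-fold difference, with 0.78 in Stella-GFP and 1.22 in Dazl-GFP. It was 1 of 3 Tet genes to pass there, where 1.87% of all genes did. The call was lost whichever of the 12 arrays was left out (0.77 to 1.22, adjusted p 0.0504 to 0.249, furthest without serum-free Dazl-GFP at day 0). Both FBS arrays of day 0 lay on slide 1 and the serum-free ones on slides 2 and 3, so no slide gives a value of its own, and with slide as a block the difference was 1.26 (adjusted p = 0.326). At day 0 the summed signal of 13 primitive endoderm markers was 12.1 to 19.9 in serum-free and 8.08 to 10.5 in FBS, and that of the fibroblast markers 62.4 to 70.0 and 69.9 to 77.4. The part of these cells in the Tet2 difference was not tested.

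At day 3 the Tet2 difference between arms was 0.59 (SE 0.18, interval 0.17 to 1.01, adjusted p = 0.0518), with 0.47 in Stella-GFP and 0.71 in Dazl-GFP. None of the 3 Tet genes passed at day 3, where 22.5% of genes did by limma, and Tet2 was the 1 of the 3 with an unadjusted p under 0.05. Leaving out either FBS day 0 array, which the day 3 difference does not use, kept that difference at 0.59 and altered only the fitted spread. At day 10 the sign of the difference was the other way, -0.36 (interval -0.78 to 0.06, adjusted p = 0.256), with both lines below 0, and no Tet gene passed (5.75% of genes did; 0 of the 3 had an unadjusted p under 0.05). At day 3 the primitive endoderm markers summed to 12.5 to 27.0 in serum-free and 4.39 to 4.85 in FBS, a difference that came with the fibroblast one given above.

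In FBS Tet2 rose from day 0 to day 10 by 0.81 (SE 0.18, interval 0.39 to 1.22, limma adjusted p = 0.0277), 1.75-fold, with 0.63 in Stella-GFP and 0.98 in Dazl-GFP. The 2 arrays of day 10 lay above the 2 of day 0, and Tet2 was 1 of 3 Tet genes to pass, where 12.9% of genes did. The Dazl-GFP arrays of both days lay on slide 1, so its 0.98 is also a value within a slide. Neither step passed on its own, with 0.35 to day 3 (adjusted p = 0.240) and 0.46 from day 3 to day 10 (adjusted p = 0.176), and in that second step no Tet gene passed (1 of the 3, Tet2, at an unadjusted p under 0.05), against 1.44% of genes. The call was lost without FBS Stella-GFP of day 10 (0.79, adjusted p = 0.130), FBS Dazl-GFP of day 10 (0.82, adjusted p = 0.134), FBS Dazl-GFP of day 0 (0.58, adjusted p = 0.0821) or either serum-free array of day 0 (0.81, adjusted p = 0.0508). It was also lost without the cell line as a block (adjusted p = 0.265) and with slide as a block (0.87, adjusted p = 0.0775).

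In serum-free the fitted Tet2 differences did not pass. They were -0.06 from day 0 to day 3 (adjusted p = 0.870), -0.49 from day 3 to day 10 (adjusted p = 0.147) and -0.55 from day 0 to day 10 (SE 0.18, interval -0.97 to -0.13, adjusted p = 0.116), with -0.57 in Stella-GFP, whose arrays shared slide 3, and -0.53 in Dazl-GFP. Over these days the primitive endoderm markers summed to 12.1 to 19.9 at day 0 and 3.23 to 4.58 at day 10 in serum-free. There 6 of 13 fell and 0 rose, where 5.27% of all genes passed. In FBS they summed to 8.08 to 10.5 and 4.6 to 4.62, and 1 of 13 fell, where 12.9% of all genes passed. Their part in the Tet2 differences to day 10 was not tested. No Tet gene passed in these 3 comparisons, in which 13.9%, 2.28% and 5.27% of genes did, and Tet2 had an unadjusted p under 0.05 in the last 2. The day 10 change in serum-free minus that in FBS was -1.36 (SE 0.25, interval -1.95 to -0.77), with an unadjusted p of 0.000838 and an adjusted p of 0.0747 in limma. That test passed for 0.0722% of genes, 15 of 20768, and for none of the Tet genes (1 of the 3, Tet2, at an unadjusted p under 0.05). The same difference of changes at day 3 was -0.41 (interval -0.998 to 0.19, adjusted p = 0.360), a test that 1.63% of genes and no Tet gene passed (0 of the 3 at an unadjusted p under 0.05).

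The other Tet2 probes had the same sign as the probe described in the day 0 and day 3 arm differences, in the FBS change to day 10 and in the line difference. A_52_P502083 had the other sign in the FBS step to day 3 (-0.26, adjusted p = 0.570), in the serum-free step to day 3 (0.95, adjusted p = 0.0538) and in the difference of these changes (1.21, adjusted p = 0.114), none of which passed, and A_51_P478930 in the serum-free step (0.15, adjusted p = 0.614). At day 0 the clone probe A_51_P478930 differed by 1.37 (adjusted p = 0.0253, over 31458 probes) and A_52_P502083 by 0.80 (adjusted p = 0.147), where 1.68% of probes passed. At day 3 they differed by 1.05 (adjusted p = 0.00805) and 2.01 (SE 0.27, adjusted p = 0.00492), and both passed, as did 24% of probes. The value of A_52_P502083 at day 3 was the largest arm difference of any Tet probe: its scaled log2 signal was -3.31 and -2.45 in FBS and -1.11 and -0.63 in serum-free, with no overlap. In serum-free the same probe differed by -1.38 from day 3 to day 10 (adjusted p = 0.0545), which did not pass. From day 0 to day 10 in FBS A_51_P478930 rose by 1.25 (adjusted p = 0.00626, 12.5% of probes passing) while A_52_P502083 differed by 0.38 (adjusted p = 0.396). Over the 12 arrays Pearson's r between the 3 probes was 0.888, 0.772 and 0.783, a description in which the arrays share lines, days and slides.

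**Figure D2:**
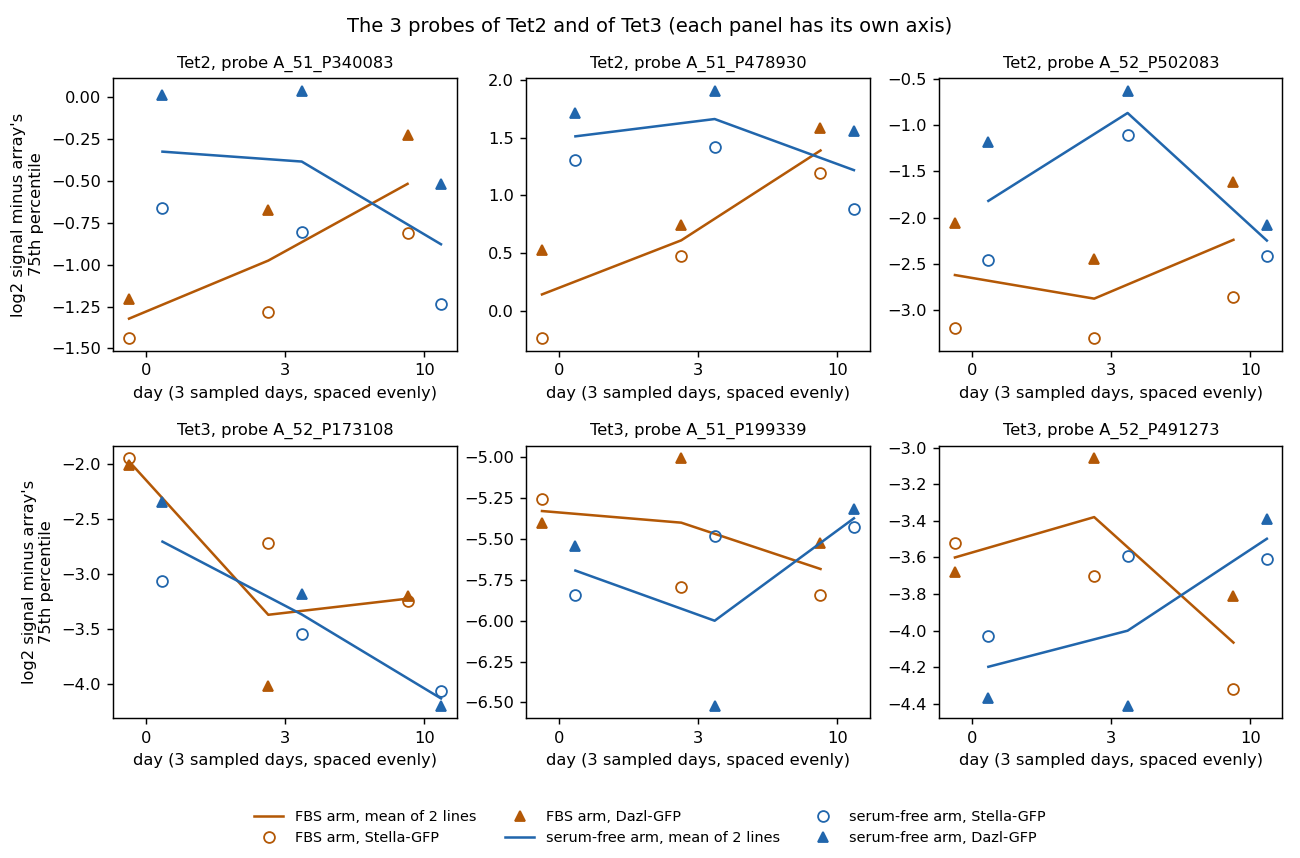
Scaled log2 signal of each of the 3 Tet2 probes (top) and 3 Tet3 probes (bottom) by day, with FBS in brown and serum-free in blue, circles for Stella-GFP, triangles for Dazl-GFP and lines through the means of the 2 arrays. The Tet2 panels share their main shape, with serum-free above FBS at days 0 and 3, while the Tet3 panels differ from each other.

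Tet1, which is the CXXC-bearing form of ES cells, passed in none of its 12 limma comparisons, with 0 also at an unadjusted p under 0.05. In FBS its scaled log2 signal was 0.36 in Stella-GFP and 0.93 in Dazl-GFP at day 0, 0.41 and 0.35 at day 3 and -0.03 and 0.33 at day 10. In serum-free it was 0.67 and 0.56 at day 0, 0.80 and 0.40 at day 3 and 0.52 and 0.47 at day 10. The arms overlapped at days 0 and 3, and at day 10 both serum-free arrays lay above both FBS arrays. The means ran from FBS day 0 (0.64 ± 0.40, SD, n = 2) to FBS day 10 (0.15 ± 0.25), and the 4 highest groups, which include all serum-free days, spanned 0.49 to 0.64 and did so in an unbroken run of overlaps.

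The arm differences of Tet1 were -0.03 at day 0 (interval -0.60 to 0.53, adjusted p = 0.947), 0.22 at day 3 (-0.35 to 0.79, adjusted p = 0.523) and 0.35 at day 10 (-0.22 to 0.91, adjusted p = 0.407). Its widest value was the FBS difference from day 0 to day 10, -0.50 (SE 0.24, interval -1.06 to 0.07, adjusted p = 0.228), with both lines below 0. In serum-free the same span gave -0.12 (interval -0.68 to 0.45, adjusted p = 0.788). These intervals reach 0.91 upward and -1.06 downward, so they do not show that Tet1 was level. At days 3 and 10 the sign of the small arm difference turned with slide as a block (-0.09 and -0.22).

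Tet3, the oocyte and zygote form, did not pass in any of its 12 limma comparisons, with 3 at an unadjusted p under 0.05. The scaled log2 signal of its probe A_52_P173108 in FBS was -1.95 in Stella-GFP and -2.00 in Dazl-GFP at day 0, -2.72 and -4.02 at day 3 and -3.25 and -3.20 at day 10. In serum-free it was -3.06 and -2.35 at day 0, -3.55 and -3.18 at day 3 and -4.06 and -4.19 at day 10. FBS day 0 was the highest group (-1.98 ± 0.04, SD, n = 2) and serum-free day 10 the lowest (-4.13 ± 0.09), and neither overlapped its neighbour. Between them serum-free day 0 (-2.70 ± 0.51) stood clear of FBS day 10 (-3.22 ± 0.03), which overlapped serum-free day 3 (-3.36 ± 0.26) and FBS day 3 (-3.37 ± 0.92). FBS day 3 also overlapped serum-free day 0, through its Stella-GFP array (-2.72).

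The 3 Tet3 differences at an unadjusted p under 0.05 were all against day 0. In FBS they were -1.39 at day 3 (SE 0.42, interval -2.36 to -0.42, adjusted p = 0.0701) and -1.25 at day 10 (interval -2.22 to -0.28, adjusted p = 0.0950), and in serum-free -1.42 at day 10 (interval -2.39 to -0.45, adjusted p = 0.0940). At day 3 in FBS none of the 3 Tet genes passed, where 12.1% of genes did. Within slide 1 Dazl-GFP in FBS gave -2.01 at day 3 and -1.19 at day 10, and within slide 3 Stella-GFP in serum-free gave -0.999 at day 10. FBS day 3 is the group where the lines differ most, and without its Stella-GFP array the day 3 difference was -2.14 (adjusted p = 0.0412), while without its Dazl-GFP array it was -0.65. The day 10 differences do not use the FBS day 3 arrays. Leaving out either of these kept them at -1.25 and -1.42 and altered only the fitted spread.

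Between the arms Tet3 differed by -0.73 at day 0 (interval -1.70 to 0.24, adjusted p = 0.330), 0.00 at day 3 (-0.97 to 0.97) and -0.91 at day 10 (-1.88 to 0.06, adjusted p = 0.226). At days 0 and 10 both serum-free arrays lay below both FBS arrays. The other Tet3 probes, A_52_P491273 and A_51_P199339, shared its sign in the arm difference at day 0 (-0.60 and -0.36). They also did so in the FBS change to day 10 (-0.47 and -0.35), and neither passed in these. They did not follow it in the arm difference at day 10 (0.57 and 0.31) or the serum-free change to day 10 (0.70 and 0.32). A_52_P491273 differed by 0.22 at day 3 (adjusted p = 0.716) and -0.47 at day 10 (adjusted p = 0.420) in FBS and by 0.70 at day 10 in serum-free (adjusted p = 0.252), and none of its 12 comparisons passed (1 at an unadjusted p under 0.05). Its r with A_52_P173108 over the 12 arrays was -0.35, and that of the dim A_51_P199339 was -0.12, while those 2 probes had 0.80 with each other. So the Tet3 values rest on 1 probe of a gene whose probes disagree in part, and which transcript each probe reads was not tested.

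**Figure D3:**
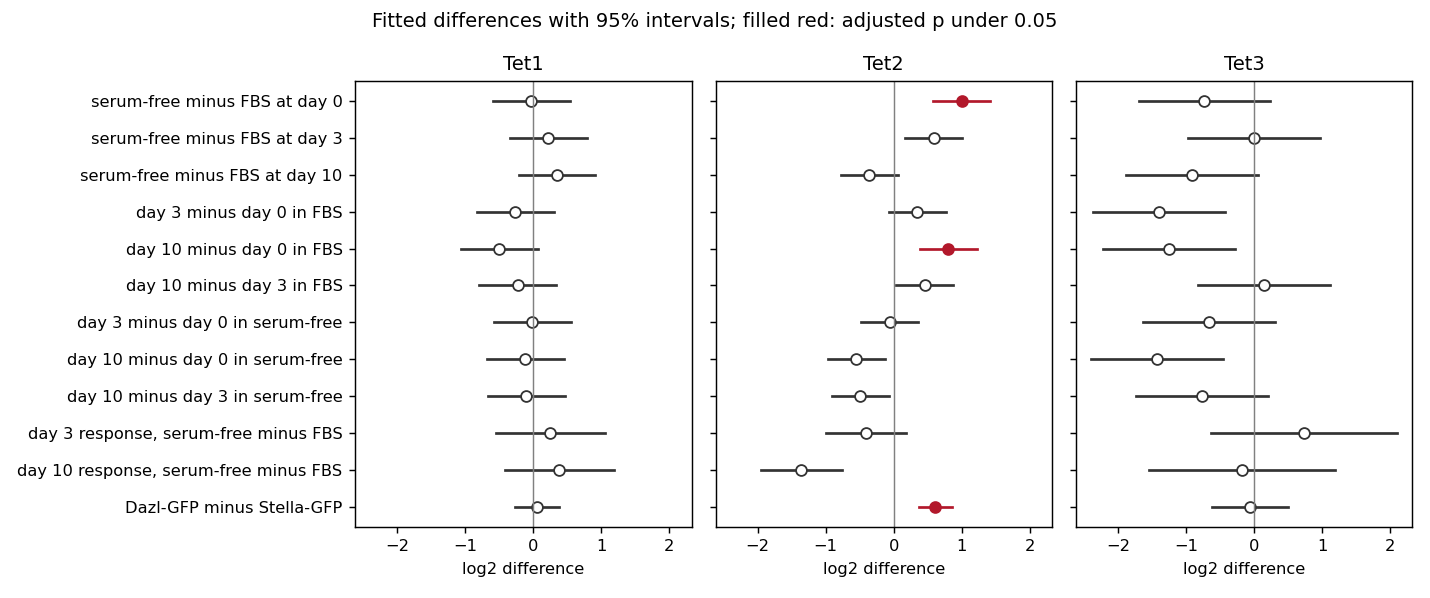
Fitted log2 differences (x axis) with 95% intervals for the 12 comparisons (y axis) in Tet1, Tet2 and Tet3, with filled red points where the limma adjusted p was under 0.05. The 3 red points are all in Tet2, at 1.00, 0.81 and 0.61.

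Tet2 was also higher in the Dazl-GFP line than in Stella-GFP, by 0.61 over the 6 groups (SE 0.10, interval 0.37 to 0.85, limma adjusted p = 0.0282), 1.53-fold. It was higher in Dazl-GFP in 6 of 6 groups, from 0.24 in FBS at day 0 to 0.85 in serum-free at day 3. Tet1 (0.05, adjusted p = 0.890) was higher in 2 of 6 and Tet3 (-0.06, adjusted p = 0.927) in 3 of 6, so 1 of 3 Tet genes passed, where 2.71% of genes did. The pairs that shared a slide gave 0.24 (FBS day 0, slide 1) and 0.72 (serum-free day 10, slide 3). Both other Tet2 probes passed too, at 0.50 (adjusted p = 0.0494) and 0.89 (adjusted p = 0.0321), where 2.5% of probes did. The call on A_51_P340083 was lost without any 1 array of FBS day 3, FBS day 10 or the serum-free groups (0.56 to 0.62, adjusted p 0.0694 to 0.101) and held without either FBS day 0 array. It was also lost with slide as a block (0.48, adjusted p = 0.393), with normexp (0.64, adjusted p = 0.290) and with the authors' deposited table (0.60, adjusted p = 0.0789). With normexp after repair of outlying local background it held.

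**Figure D4:**
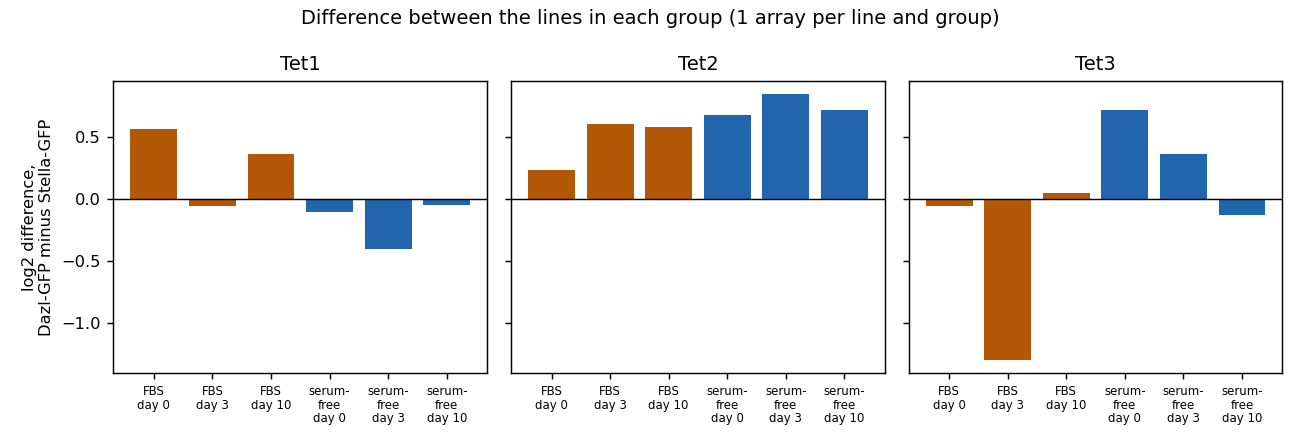
Difference in scaled log2 signal between the lines, Dazl-GFP minus Stella-GFP (y axis), in each group (x axis), from 1 array per line, with FBS in brown and serum-free in blue. The Tet2 bars are above 0 in 6 of 6 groups, and the Tet1 and Tet3 bars lie on both sides of 0.

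Whether the line difference itself depended on the arm was tested as an interaction. In FBS the Tet2 line difference was 0.48 (adjusted p = 0.151) and in serum-free 0.75 (adjusted p = 0.108), and the difference between them was 0.27 (interval -0.18 to 0.72, adjusted p = 0.590). The same term was -0.48 for Tet1 (adjusted p = 0.496) and 0.75 for Tet3 (adjusted p = 0.528). It passed for 0% of genes in limma, 0 of 20768, with 2189 at an unadjusted p under 0.05. Dazl, the RNA-binding protein gene of the title, had a line difference of 2.53 (SE 0.36, adjusted p = 0.0158). Its scaled log2 signal ran from -2.68 in Stella-GFP at serum-free day 0 to 3.19 in Dazl-GFP at FBS day 10. From day 0 to day 10 in FBS Dazl rose by 2.52 (adjusted p = 0.0383), with 1.06 in Stella-GFP and 3.98 in Dazl-GFP, while its arm differences of -0.48, 0.75 and -1.85 did not pass (adjusted p 0.664, 0.397 and 0.127).

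The genes with the most similar course to each Tet gene were taken by Pearson's r of the scaled log2 signal over the 12 arrays, among 16525 other genes well above background on all of them. Beside Tet2 stood LOC552903 (0.920), Acad8 (0.889), Hormad2 (0.886), Pdzd8 (0.878) and AK052831 (0.861), with Car11 (-0.888) at the other end. Hormad2, a gene of meiotic chromosomes, was itself higher in Dazl-GFP by 2.00 (SE 0.13, adjusted p = 0.00102). Beside Tet1 stood Acvr2b (0.898), Proser3 (0.884), Smg6 (0.849), Top2a (0.847) and Kctd13 (0.842), with Slc35a1 (-0.890) lowest. Beside Tet3 stood H2-D1 (0.928), NAP102624-1 (0.918), 4930555G01Rik (0.916), Gm3696 (0.914) and Rab31 (0.910). These are the extremes of many genes over arrays that share lines, days and slides.

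Genes around the TET reaction were read as 6 lists. The marker sums that differ between groups, given above, hold for these lists too, and their part in the counts was not tested. There were 24 tested partners and recruiters of TET proteins, such as the glycosyltransferase Ogt, the histone deacetylases and the pluripotency factors that bind TET. Of these, 0 were higher and 1 lower in serum-free at day 0, where Tet2 was called and 1.87% of all genes passed. That was Wt1, a zinc finger factor that recruits Tet2, at -2.76 (adjusted p = 0.0485), well above background on 11 of 12 arrays. In FBS from day 0 to day 10 they numbered 3 higher and 3 lower (6 of 24, beside 12.9% of all genes), with Nanog at 1.46, Klf4 at 1.44, Lin28a at -2.57 and Wt1 at -4.69. The list's median was -0.13 there, against -0.03 for all genes. At day 3 between the arms, where 22.5% of all genes passed, 1 was higher, the zinc finger gene Zfp281 (0.92). The 3 that were lower were Wt1 (-2.07), Rbm14 (-1.41) and Sall4 (-0.81).

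The DNA methyltransferases, which write the mark that TET enzymes oxidise, form a list of 10 with their maintenance factors. At day 0 between the arms 0 of them passed, beside 1.87% of all genes. Of the 10, 1 rose and 3 fell in FBS from day 0 to day 10 (12.9% of all genes passed), with Dnmt3b at -3.24, Dnmt3l at -3.02 and Dnmt3a at -2.69 (adjusted p 0.00286, 0.0236 and 0.00269). Between the arms at day 10 (5.75% of all genes), 2 were higher in serum-free, Dnmt3b by 2.69 and Dnmt3a by 1.48. At day 3 (22.5%) 2 were higher, Zfp57, which guards methylation at imprinted loci, by 1.16, and Dnmt3a by 1.06. In serum-free from day 3 to day 10 Dnmt3b rose by 2.85 (1 of 10, with 2.28% of genes passing) and from day 0 to day 3 it fell by 2.82 (1 of 10, with 13.9% passing). From day 0 to day 3 in FBS, 2 of 10 fell, Dnmt3b (-2.97) and Dnmt3a (-2.31). There 2 rose, Dppa3 (2.70) and Dnmt1 (0.82), with 12.1% of genes passing.

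A further list held 22 genes around base excision and the removal of oxidised bases. It included the glycosylase genes Tdg and Mbd4 and also Gadd45 genes and Apobec2, which encode no glycosylase. Of the 22, 1 was higher in serum-free at day 0, where 1.87% of all genes passed. That was Hmces, a gene for a protein that binds abasic sites (1.17, adjusted p = 0.0499). In FBS from day 0 to day 10, 2 rose, Gadd45b by 2.80 and Apobec2 by 2.75, and 2 fell, Gadd45a (-1.61) among them, where 12.9% of all genes passed. The median was 0.30, against -0.03 for all genes. Between the arms at day 3, 2 were higher, the glycosylase genes Neil3 (1.41) and Neil2 (2.16, well above background on 9 of 12 arrays), and 5 lower, Gadd45g (-3.15) among them, where 22.5% of all genes passed. Ogg1, an 8-oxoguanine glycosylase gene, was the 1 of 22 to differ between the lines, by 0.77 in favour of Dazl-GFP (2.71% of all genes passed).

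The cofactor supply list held 26 genes for 2-oxoglutarate, iron and ascorbate. None passed at day 0 between the arms (1.87% of all genes did). In FBS from day 0 to day 10, 4 rose and 1 fell, where 12.9% of all genes passed. The fall was Slc23a1, an ascorbate transporter gene, at -3.39 (adjusted p = 0.00104), and the rises included Idh2 (1.52) and Idh1 (0.66), isocitrate dehydrogenase genes that make 2-oxoglutarate, and Slc23a2, the other ascorbate transporter gene (1.00). In serum-free over the same days Slc23a1 was lower by -2.51 and Idh2 higher by 1.16, the 2 that passed of 26 (5.27% of all genes). Another list held 28 genes from other families of 2-oxoglutarate dioxygenases, whether or not each encodes an active enzyme. Of these 0 passed at day 0 between the arms (1.87% of all genes did). In FBS to day 10 (12.9%) 1 rose and 1 fell, Kdm3a (0.77) and Jarid2 (-0.78). Between the arms at day 3, 3 were higher in serum-free, Kdm5a (1.67), Plod2 (1.23) and Kdm3a (0.90), where 22.5% of all genes passed and their median was -0.22.

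Germline genes that are known to be silenced by promoter methylation are textbook targets of demethylation, and 18 of 20 listed were tested. Between the arms 0 passed at day 0 (1.87% of all genes did), and 3 were higher and 3 lower at day 3 (22.5%). At day 10 (5.75%) 1 was lower, Mov10l1 (-1.62, well above background on 11 of 12 arrays). From day 0 to day 3, 7 fell and 0 rose in FBS, where 12.1% of all genes passed, and 8 fell and 0 rose in serum-free, where 13.9% did, with Ddx4 at -0.67 and -1.67 and Piwil2 at -1.20 and -1.30. From day 0 to day 10 in FBS 2 rose, Dazl and Hormad2 (1.43), and 3 fell, Tdrd1 (-1.58) among them, beside 12.9% of all genes. In serum-free to day 10 6 fell and 0 rose, beside 5.27%. Between the lines 4 were higher in Dazl-GFP, with Dazl, Hormad2, Mov10l1 (0.63) and Tex19.1 (0.59), and 1 was lower, Tdrd1 (-0.65), beside 2.71% of all genes. The comparisons from day 0 share their day 0 arrays, so a gene's values at days 3 and 10 are not independent.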

How the data were processed

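RNA of 12 ES cell samples was read on one-colour Agilent arrays of 45018 spots (43379 not controls). The deposited spot values are intensity from Agilent Feature Extraction 9.1.3.1, per the file headers, with subtraction of local background, detrending and a small stand-in value for spots at background level. The authors also deposited a series table holding a signal of unstated processing. Each column of it has a median of 1, a floor of 0.1, and values above the median that follow the background-subtracted intensity over the array median (ratio 1.09 to 1.10), so its scale is linear. Where its gene names come from is not given in the sources used here.

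From the deposited intensities, log2 was taken here and each array's 75th percentile subtracted. Irregular spots were left out and spots of a probe averaged. Probes were named by RefSeq accession or by a current or unique older symbol (32706 of 41174), by the table of the authors (1286) or by the file's own name (7182). The brightest probe of the best naming basis stood for a gene, and genes kept had to be well above background on 2 arrays or more (20768). R 4.3.3 with limma 3.58.1 (with the data.table package, version 1.17.8, and figures with matplotlib 3.10.9) fitted the 6 groups plus the cell line to all 12 arrays (5 residual degrees of freedom, 2.53 prior), with Benjamini-Hochberg adjustment at 0.05, after a check on simulated data. The replicate numbers are the lines, which pairs the arrays. Line differences correlated across genes at -0.05 to 0.57 over 15 pairs of groups, above 0.1 in 13.

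The Tet genes are named in every comparison, as are Dazl, up to 4 passing members of a list with the largest change, and the genes most and least correlated with each Tet gene. A few of the genes so chosen are left out here. The members and lists were chosen with earlier results of these data known. Promoters are RefSeq's (GRCm38.p6).

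Alternatives were quantile normalization, normexp (offset 50), the authors' table, other filters, a fit of each probe or of the mean of probes, a fit with no cell line block or with slide as a block, a variance trend in eBayes, a fit to only the arrays compared, and leaving out each array. Added after seeing the data were normexp with local background over 10 times the array's median repaired, and the brightest probe whatever its name rests on. Only the FBS Dazl-GFP array of day 0 had spots with such background, 10 in number.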

Additional observations from a re-analysis of the deposited data

Results flagged for a closer look

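At probe A_51_P340083 the Tet2 values went opposite ways in the arms, in both lines. From day 0 to day 10 its scaled log2 signal differed by 0.63 in Stella-GFP and 0.98 in Dazl-GFP in FBS, and by -0.57 and -0.53 in serum-free. In limma the FBS change passed (0.81, adjusted p = 0.0277) and the serum-free one did not (-0.55, adjusted p = 0.116). The difference of these changes, serum-free minus FBS, was -1.36 (SE 0.25, unadjusted p = 0.000838), and it did not pass after adjustment over 20768 genes (limma, adjusted p = 0.0747). The other Tet2 probes, A_51_P478930 and A_52_P502083, gave -1.54 (adjusted p = 0.0756) and -0.81 (adjusted p = 0.297). The arms went opposite ways in both lines at A_51_P478930 too, but not at A_52_P502083. There serum-free Stella-GFP was at -2.46 at day 0 and -2.41 at day 10, so it did not fall. With each array left out in turn the value was -1.58 to -1.13 (adjusted p 0.0837 to 0.242).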

How the results depend on the processing

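Over 510 pairs of a Tet comparison and an alternative, 437 kept both sign and side of the threshold, 14 lost a call and 14 gained one. Only the 3 called Tet2 comparisons could lose a call, so most of the 437 are uncalled results that stayed uncalled. The arm difference at day 0 passed in 9 of 15 alternatives and the FBS change to day 10 in 10 of 15. The line difference passed in 10 of 13. In 45 (8 of them for Tet2) the sign turned, and none of these passed in either setting. The causes were not tested. The Tet2 difference between arms at day 0 (1.00) no longer passed with normexp (0.50, adjusted p = 0.296), without a filter on dim genes (1.00, adjusted p = 0.0704), with no replicate block, that is without the cell line (1.00, adjusted p = 0.233), with slide as a block (1.26, adjusted p = 0.326), with only the arrays compared (1.00, adjusted p = 0.101) or at probe A_52_P502083 (0.80, adjusted p = 0.147). At day 3 it (0.59) passed with genes above background on all 12 arrays (0.59, adjusted p = 0.0360), a variance trend (0.59, adjusted p = 0.0398), the mean of probes (1.22, adjusted p = 0.00353), the brightest probe (1.05, adjusted p = 0.00793) and at probes A_51_P478930 (1.05, adjusted p = 0.00805) and A_52_P502083 (2.01, adjusted p = 0.00492).

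The FBS change of Tet2 to day 10 (0.81) no longer passed with normexp (0.31, adjusted p = 0.382), with no replicate block (0.81, adjusted p = 0.265), slide as a block (0.87, adjusted p = 0.0775), only the arrays compared (0.81, adjusted p = 0.207) or at A_52_P502083 (0.38, adjusted p = 0.396). The Tet2 line difference (0.61) no longer passed with normexp (0.64, adjusted p = 0.290), the authors' table (0.60, adjusted p = 0.0789) or slide as a block (0.48, adjusted p = 0.393). With repaired normexp the FBS change to day 10 and the line difference still passed. The difference of the day 10 changes of Tet2 (-1.36) passed with repaired normexp (-1.27, adjusted p = 0.0324), all 12 arrays above background (-1.36, adjusted p = 0.0418) and a variance trend (-1.36, adjusted p = 0.0405), and its serum-free step from day 3 to day 10 with the mean of probes (-0.77, adjusted p = 0.0476). For Tet3 the FBS difference at day 3 (-1.39) passed with repaired normexp (-0.66, adjusted p = 0.0352), all 12 arrays above background (-1.39, adjusted p = 0.0429) and a variance trend (-1.39, adjusted p = 0.0416), and at day 10 with repaired normexp (-0.82, adjusted p = 0.0269). With no replicate block the line difference could not be fitted, and no uncalled Tet comparison came to pass.

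With each array left out, the Tet2 difference between arms ranged from 0.77 to 1.22 at day 0 and from 0.45 to 0.73 at day 3, its FBS change to day 10 from 0.58 to 1.03 and the line difference from 0.56 to 0.69. The Tet3 differences ranged from -2.14 to -0.65 (FBS, day 3), from -1.31 to -1.18 (FBS, day 10) and from -1.89 to -0.96 (serum-free, day 10). Calls over all genes moved more: at day 0 between arms 388 became 0 with normexp or slide as a block and 946 with repaired normexp, and in FBS to day 10 2683 became 364 with normexp, 1289 with slide as a block and 0 with only the arrays compared. The low signal of the Tet3 probes (8.18 to 236 units, beside median local backgrounds of 44 to 55) limits what Tet3 can show.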
